A study of Drosophila melanogaster with 3 samples.

Results

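The small heat shock protein cluster of Drosophila melanogaster is a run of heat-inducible genes on chromosome arm 3L. Its 7 listed members, out of 13945 protein-coding genes in the annotation, were Hsp22, Hsp23, Hsp26, Hsp27, Hsp67Ba, Hsp67Bb and Hsp67Bc. Of these, 6 were found by symbol, and 1, Hsp67Bb, by a RefSeq synonym, because the Ensembl annotation lists it as CG4456. The members spanned 3L:9371511-9385694 in genome release 6 (dm6), and every called summit there and within 5 kb on either side was collected. A gene counted as bound if at least 1 of its annotated transcription start sites had a summit no more than 500 bp away. Offsets below 0 are upstream of the start site.

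The study was a chromatin immunoprecipitation sequencing (ChIP-seq) experiment on whole prepupae of pooled males and females. All animals came from 1 transgenic line carrying a C-terminal eGFP fusion of CG6808, a zinc finger DNA-binding protein also called Zaf1, and chromatin was precipitated with an antibody to GFP. There was 1 group of 3 biological replicates and no untreated, untagged or mock group was analysed here, so binding could be compared between places in the genome and not between conditions. The labels give an age of 24 day beside the prepupal stage, and name CG6808 in the antibody field while the description names GFP. The labels do not state which promoter drives the fusion, and in whole animals the cell types that contribute to a summit cannot be told apart.

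Small heat shock proteins carry an alpha-crystallin domain and hold unfolding proteins in a state from which other chaperones can refold or degrade them. In flies, genes of this cluster are switched on by heat through heat shock factor, which binds alternating GAA and TTC units called heat shock elements. Several of them are also switched on without heat by the steroid hormone ecdysone at the onset of metamorphosis, the stage sampled here. Hsp22 is a mitochondrial protein, Hsp27 is found in the nucleus, and Hsp23 and Hsp26 are cytosolic. Hsp67Bc works with the co-chaperone Starvin in protein quality control, whereas Hsp67Bb encodes a rhodanese-like protein without the alpha-crystallin domain. Promoters of the family, that of Hsp26 above all, are classic examples of chromatin kept open before heat shock by GAGA factor and a paused RNA polymerase.

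The stretches around the summits that the results turn on are given below, from the RefSeq dm6 assembly, 5′ to 3′. The first belongs to the tallest summit of the cluster, at 3L:9383815-9384015 on the plus strand, at -148 bp from the Hsp27 start, and its capital letter is the summit base. The next is the Hsp26 summit at 3L:9377667-9377801 on the minus strand, the strand of Hsp26, and was shortened where the 3′ UTR of Hsp67Ba begins. The Hsp23 summit follows, at 3L:9381658-9381858 on the plus strand. Hsp26 and Hsp23 were the members with a heat shock element pair (GAANNTTC or TTCNNGAA) within 100 bp of their summit, and capitals mark these pairs. The last, at 3L:9380643-9380843 on the plus strand, lies in the noncoding gene asRNA:CR43481 and was the cluster window with CACTG, marked in capitals on either strand.
Hsp27: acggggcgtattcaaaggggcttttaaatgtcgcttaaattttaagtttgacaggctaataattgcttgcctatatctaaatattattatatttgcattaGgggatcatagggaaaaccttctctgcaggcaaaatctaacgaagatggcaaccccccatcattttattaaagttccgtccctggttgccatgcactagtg
Hsp26: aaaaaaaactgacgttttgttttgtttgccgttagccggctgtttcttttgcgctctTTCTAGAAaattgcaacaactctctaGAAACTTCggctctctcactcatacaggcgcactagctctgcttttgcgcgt
Hsp23: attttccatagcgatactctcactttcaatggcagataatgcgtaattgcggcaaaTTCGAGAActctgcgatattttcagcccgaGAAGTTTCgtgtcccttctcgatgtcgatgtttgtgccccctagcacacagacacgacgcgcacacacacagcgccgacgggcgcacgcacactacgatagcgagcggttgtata
asRNA:CR43481: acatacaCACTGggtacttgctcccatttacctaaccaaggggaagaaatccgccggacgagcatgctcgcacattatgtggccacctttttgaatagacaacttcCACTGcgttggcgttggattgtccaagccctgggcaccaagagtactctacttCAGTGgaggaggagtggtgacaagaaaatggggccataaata

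The tagged protein had a reproducible summit at 5 of the 7 members and a summit of any strength, background included, at all 7. The reproducible summits come from the authors' list filtered by irreproducible discovery rate (IDR), which holds 8091 regions, and the others from their list called on the pooled replicates, which holds 30000. Signal below is the authors' own value for each region, and over matched IDR peaks it was a median of 1.00 times the sum of the 3 replicate signals, with quartiles of 0.984 and 1.02. The lists hold no read counts, so sequencing depth is unknown and no counting error could be given. Hsp22, Hsp23, Hsp26, Hsp27 and Hsp67Ba were bound in the IDR list, where 18.1% of all protein-coding genes were bound. In the pooled list, which by its name holds peaks and background together, all 7 members had a summit, against 32.2% of genes. The 2 members added there, Hsp67Bb and Hsp67Bc, rest on 1 weak summit with a −log10 q of 0.645. Among the 8091 strongest regions of each replicate's own list, 5 members were bound in replicate 1, where the share over all genes was 20.7%. In replicate 2 it was 4 members beside 17.7%, and in replicate 3 4 members beside 16.5%. The member lost in replicates 2 and 3 was Hsp22, whose summit there lay at -501 and -502 bp from the start site, just outside the window. No test was made of these counts, because the genes were listed with results of these data known.

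Summits were denser in the region than over the arm, but unevenly spaced. The region with its flanks held 8 IDR summits in 24.2 kb, or 0.331 per kb, compared with 0.0658 per kb over arm 3L and 0.0604 per kb over the 6 main arms. Of these 8, 7 lay between the outermost ends of the members. The longest gaps between neighbouring IDR summits were 5893 bp, from CG4452 to Hsp22, and 4200 bp, from Hsp22 to Hsp26. From Hsp26 to Hsp27 no gap exceeded 2157 bp. When the arms were divided into 5533 tiles of the region's length, 2.51% of tiles held at least 8 IDR summits. The pooled list had 20 summits in the region, or 0.827 per kb beside 0.239 on arm 3L. The 3 replicate lists of 30000 regions each placed 21, 19 and 17 summits there. Outside the region the nearest IDR summits were 4400 bp beyond its left edge, at CG34456, and 6572 bp beyond its right edge, in an intron of CG4080.

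**Figure D1:**
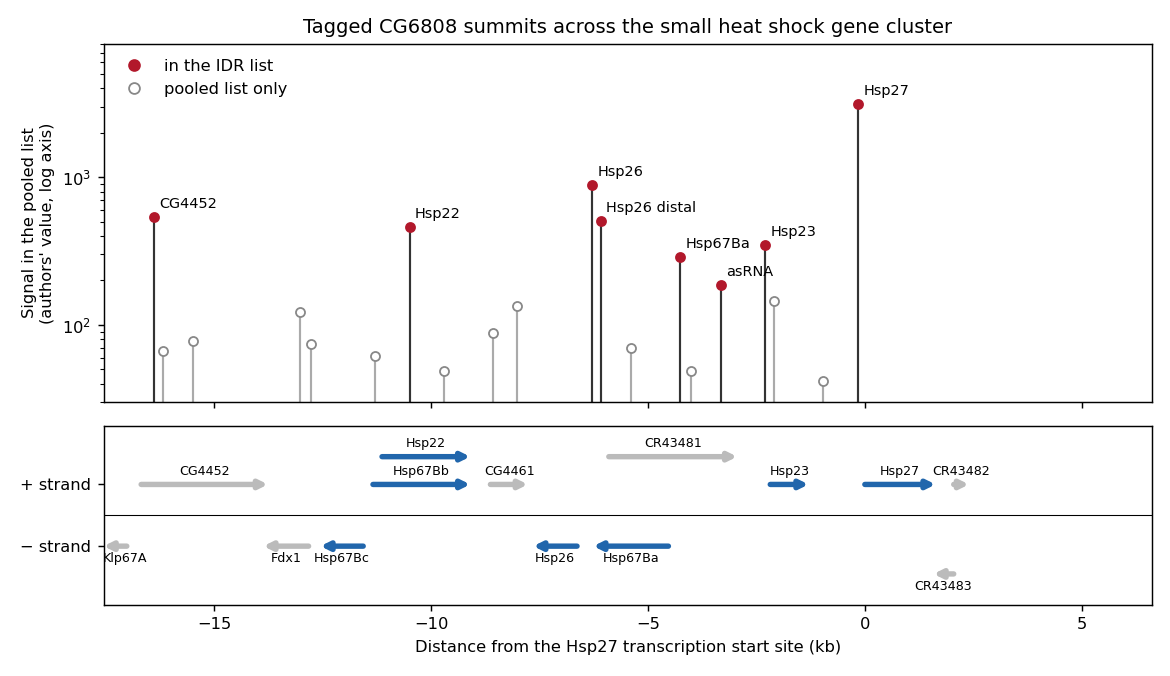
Signal of every pooled summit (authors' value, log axis) against distance from the Hsp27 start site in kb, with filled points for summits that are also in the IDR list and arrows below for genes by strand (members in blue, other genes in grey). The Hsp27 summit stands at 3142, and every other summit lies at or below the 882 of Hsp26.

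The Hsp27 summit was the tallest in the cluster and among the tallest in the genome. Its IDR signal was 3142, rank 88 of 8091, and among the 2519 bound protein-coding genes Hsp27 stood in place 73, at percentile 97.1 by its strongest promoter summit. The 3 replicates gave it signals of 1646, 764 and 719.9, in replicate order. The lists are not scaled to each other, so each value was also divided by the median signal that 6664 IDR peaks matched in all 3 replicates had in the same list (169, 74.7 and 76.4). On that relative scale Hsp27 had 9.72, 10.2 and 9.42, or 9.79 ± 0.404 (SD, n = 3). The coefficient of variation was 4.12%, below the lower quartile of 10.5% over the 6664 peaks, whose median was 17.7%. Its rank was 86, 87 and 89 in the 3 lists, and the replicate summits lay 1, 11 and 15 bp from the IDR summit. The region called there ran from 9383637 to 9384141, and its summit at 9383915 was intergenic.

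The genes closest to Hsp27 in promoter summit height were 4 genes that share 2 summits. Just above it in height, Art3, an arginine methyltransferase gene, and mRpS10, a mitochondrial ribosomal protein gene, shared 1 summit on arm 3R with signal 3156, at offsets of -125 and -132 bp. Just below it, Ssl1, which encodes a subunit of transcription factor TFIIH, and Chro, which encodes the chromatin protein Chromator, shared 1 summit on 3L with signal 3058, at -190 and 85 bp. Likeness here means height alone, in 3 replicate lists, where the first summit ranked 89, 72 and 91 and the other 98, 78 and 90.

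Hsp26 had the next tallest member summit, and a wide region. The IDR list gave 2 summits in a region of 725 bp, from 9377375 to 9378099, at the place where the upstream side of Hsp26 meets the 3′ end of Hsp67Ba. The nearer summit, at 9377767, lay at -340 bp from Hsp26 with a signal of 882, rank 923, and put Hsp26 at percentile 81.3 of bound genes. Its signal was 561, 133 and 183 in replicates 1 to 3, at ranks 675, 1854 and 1152. Replicate 1 supplied 64.0% of the sum of the replicate signals, beside a median of 52.9% and quartiles of 48.8% and 57.1% over the 6664 peaks. Its relative signal was 2.49 ± 0.775 (SD, n = 3), with replicate 1 the highest and replicate 2 the lowest. The other summit, at 9377970, lay 203 bp further upstream, in the 3′ UTR of Hsp67Ba and at -543 bp, just outside the promoter window of Hsp26. It had a signal of 505 and a relative signal of 1.49 ± 0.432 (SD, n = 3). Hsp26 lies on the minus strand, and the start of asRNA:CR43481 on the plus strand puts the nearer summit at -393 bp. That summit thus falls within the windows of both genes. The summit at 9377970 lay at -190 bp from the same asRNA:CR43481 start, closer to it than to Hsp26, and so within the window of asRNA:CR43481.

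Hsp27 exceeded Hsp26 in each of the 3 replicates. The log2 ratio of the Hsp27 to the Hsp26 summit within a list was 1.55, 2.52 and 1.98, with a mean of 2.02 ± 0.49 (SD, n = 3), or 4.05-fold. An exact two-sided sign-flip permutation test gave p = 0.25, the smallest value 3 replicates allow. The pairs here and below were ordered by the pooled signal, which is close to the sum of the same replicates. A shared direction is therefore not independent evidence of the order. Lower in the order, the members were less separated. The log2 ratio of Hsp26 to Hsp22 was 1.11, 0.20 and 0.75, with a mean of 0.68 ± 0.46 (SD, n = 3), again with one direction in every replicate and an exact p = 0.25. The log2 ratio of Hsp22 to Hsp23 could be formed in 2 replicates, where it was 0.54 and 0.04 with a mean of 0.29 ± 0.35 (SD, n = 2), and where an exact p cannot go below 0.5. That mean was smaller than its SD, and 2 replicates cannot settle the order of Hsp22 and Hsp23. In replicate 2, which had no match to the Hsp23 IDR summit, Hsp22 had 116 and the downstream Hsp23 summit 63.8. For Hsp23 over Hsp67Ba the log2 ratio was 0.75 and 0.20 in replicates 1 and 3, with a mean of 0.47 ± 0.39 (SD, n = 2). In replicate 2 the downstream Hsp23 summit, at 63.8, was below the 66.3 of Hsp67Ba, so the order of this pair was reversed there.

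**Figure D2:**
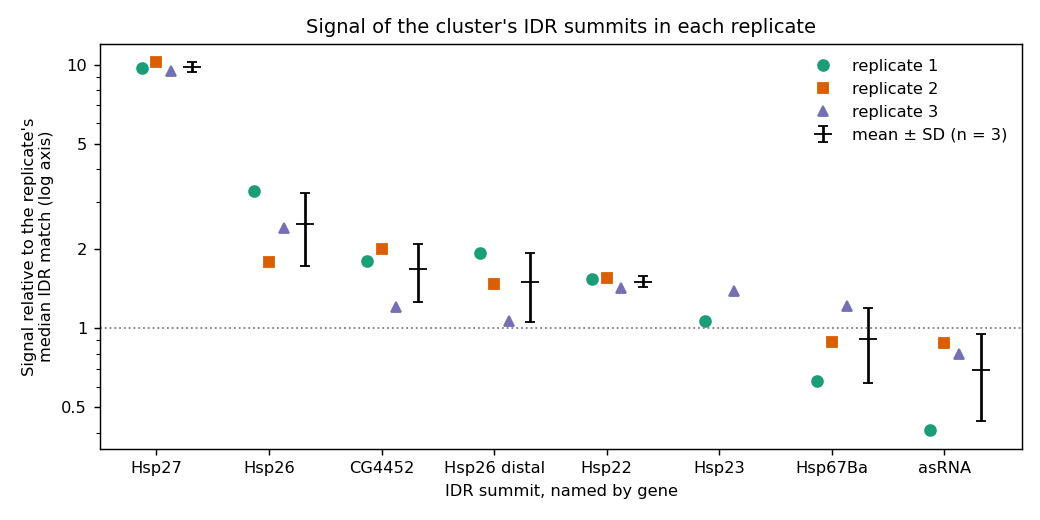
Relative signal (replicate signal over the median of matched IDR peaks in the same list, log axis) of the 8 IDR summits in replicates 1 to 3, with the mean ± SD where all 3 lists had a match. Hsp26 distal is the outer Hsp26 summit, whose nearest start is that of asRNA:CR43481, and asRNA is the summit at 9380743 in asRNA:CR43481. Hsp27 sits between 9.42 and 10.2, and the highest value of any other summit is 3.32, for Hsp26 in replicate 1.

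Hsp22 and Hsp67Bb share a transcription unit: the longer Hsp22 transcript starts at 9372931, inside the Hsp67Bb locus, and the shorter one starts 1066 bp further on, at 9373997. The IDR summit between these starts, at 9373567, had a signal of 461 and rank 2290 and placed Hsp22 at percentile 62.8 of bound genes. It lay at -430 bp from the start of the shorter transcript, and in annotation it falls in the 5′ UTR of the longer Hsp22 transcript and the 3′ UTR of Hsp67Bb. Its signal was 261, 116 and 109 in the 3 replicates, at the close ranks 2186, 2207 and 2317. The relative signal was 1.5 ± 0.0703 (SD, n = 3), a coefficient of variation of 4.67%. From the nearest Hsp67Bb start the same summit lay 636 bp downstream, outside the window.

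Hsp67Bb and Hsp67Bc, whose starts diverge 225 bp apart, had only a weak summit. In the pooled list they shared the summit at 9372761, with a signal of 61.3, a −log10 q of 0.645 and rank 19612, which lay 39 bp downstream of the Hsp67Bb start and at -264 bp from Hsp67Bc. It was matched within 100 bp in replicate 1, with signal 34.2 and rank 20053, and in replicate 3, with signal 20.2 and rank 19275, but not in replicate 2. Replicate 2 had instead a summit 31 bp downstream of the later Hsp67Bb start, with signal 21.5 at rank 15496, and one 287 bp downstream of the Hsp67Bc start, with signal 25.6 at rank 12716. The replicate lists, like the pooled list, are named by the authors as peaks and background together, and ranks of this depth were far below the 8091 regions kept by IDR. The nearest IDR summit to Hsp67Bc was at -1070 bp.

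Hsp23 had summits on both sides of its start that the replicates placed differently. The IDR summit at 9381758 lay at -124 bp, with a signal of 345, rank 3220 and percentile 51.1 of bound genes. Replicate 1 had a matching summit with signal 179 at rank 3517, and replicate 3 one with signal 106 at rank 2406. In replicate 2 no summit lay within 100 bp, and the nearest was 159 bp away, 35 bp downstream of the start, with signal 63.8 at rank 4501. The pooled list has a further summit at 9381962, 80 bp downstream of the start, with signal 146, which is not in the IDR list. That position was matched within 100 bp in all 3 replicates, with signals of 148, 63.8 and 16.5 at ranks 4389, 4501 and 25319. Replicate 1 thus had a summit of some strength on both sides of the start, replicate 2 only the downstream one of the pair, and replicate 3 a strong upstream and a weak downstream one. The strongest summit within 500 bp of the start lay at -167, 35 and -117 bp in the 3 replicates.

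Hsp67Ba, a further small heat shock gene, was the weakest of the 5 bound members. Its IDR summit at 9379806, at -272 bp and inside an exon of asRNA:CR43481, had a signal of 289, rank 3976 and percentile 42.4 of bound genes. The matched replicate signals were 106, 66.3 and 92.1 at ranks 6585, 4283 and 2855, and the relative signal was 0.908 ± 0.289 (SD, n = 3). Replicate 1 was the lowest of the 3 and supplied 40.2% of the replicate sum. In replicate 1 a nearer summit, at -81 bp, was higher, with signal 120.4 at rank 5725. The signals of all bound genes had a median of 335 and quartiles of 218 and 672, so Hsp67Ba and Hsp23 were near the middle of bound genes and Hsp22 above it, below the upper quartile.

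The other 2 IDR summits of the region were away from member starts. One, at 9380743 in asRNA:CR43481, lay at -1139 bp from Hsp23, with a signal of 186 at rank 6508. Its replicate signals of 69.2, 65.7 and 61 stood at ranks 10476, 4342 and 4792, and its relative signal of 0.696 ± 0.251 (SD, n = 3) was the lowest of the IDR summits matched in all lists. The other, at 9367674 in an intron of CG4452, was 297 bp downstream of that gene's start and had a signal of 541 at rank 1858, with 305, 149 and 91.8 in the replicates. Altogether 7 of the 8 IDR summits were matched within 100 bp in all 3 replicate lists, beside 6664 of all 8091 IDR peaks. The exception was Hsp23. All 8 carried the highest −log10 q value in the authors' list, 4.12, which 81.2% of IDR peaks share, so this column does not order them.

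**Figure D3:**
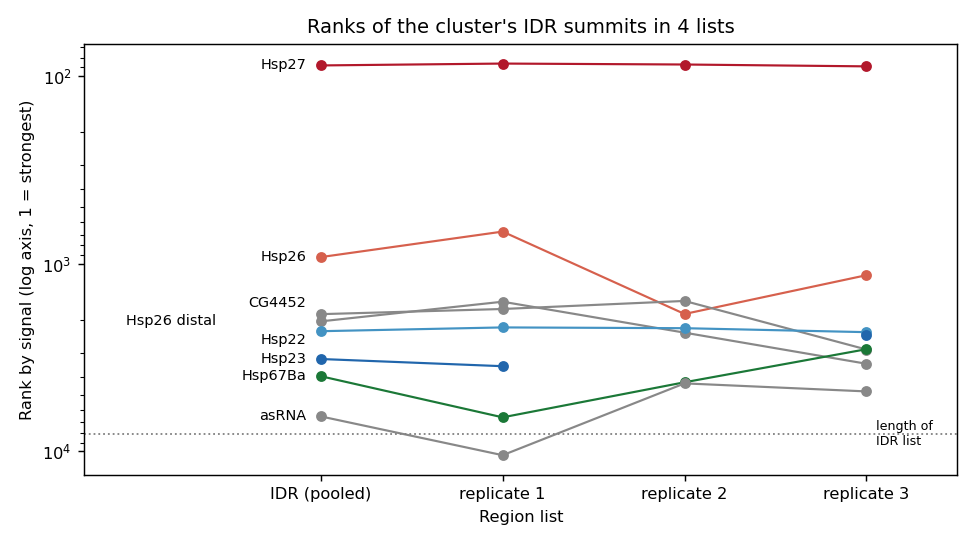
Rank by signal (log axis, 1 strongest at the top) of the 8 IDR summits in the IDR list and in each replicate's list, with the 8091 length of the IDR list dotted. Hsp27 stays between 86 and 89, and Hsp23 has no point in replicate 2.

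Of the other genes inside the region, only CG4452 and asRNA:CR43481 were bound in the IDR list. CG4461, itself an alpha-crystallin small heat shock gene within the cluster, had only a pooled summit 60 bp downstream of its start, with signal 88.2. Fdx1, a ferredoxin gene, had only pooled summits, of signal 122 at 10 bp and 74.0 at -48 bp, each matched in replicate 1 alone. Klp67A, a kinesin gene, and the pseudogenes CR43482 and CR43483 had no summit within 500 bp in either list. Of the 5 alpha-crystallin genes besides the members, CG14207 had an IDR summit, with signal 215 at 32 bp, and l(2)efl, CG7409 and CG13133 had none in either list.

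Heat shock and chaperone genes elsewhere in the genome were lower than Hsp27. Of 19 such genes 8 were bound in the IDR list, beside the 18.1% of all genes, and their median signal was 282. Hsp83, the fly Hsp90, had 1179 at -116 bp, above every member but Hsp27. Hsc70-5, a mitochondrial chaperone, had 795 at its start, above Hsp22, Hsp23 and Hsp67Ba. The co-chaperone genes stv (Starvin) and DnaJ-1 had 375 and 309, and Hsp68 had 254. Droj2, a DnaJ co-chaperone gene, had 237, Hsc70-3, the chaperone of the endoplasmic reticulum, had 234, and Hsf, the heat shock factor gene, had 193. The Hsp70 genes had no summit in either list, but they are near-identical copies in which reads may not map uniquely, so their absence from the lists is uncertain.

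**Figure D4:**
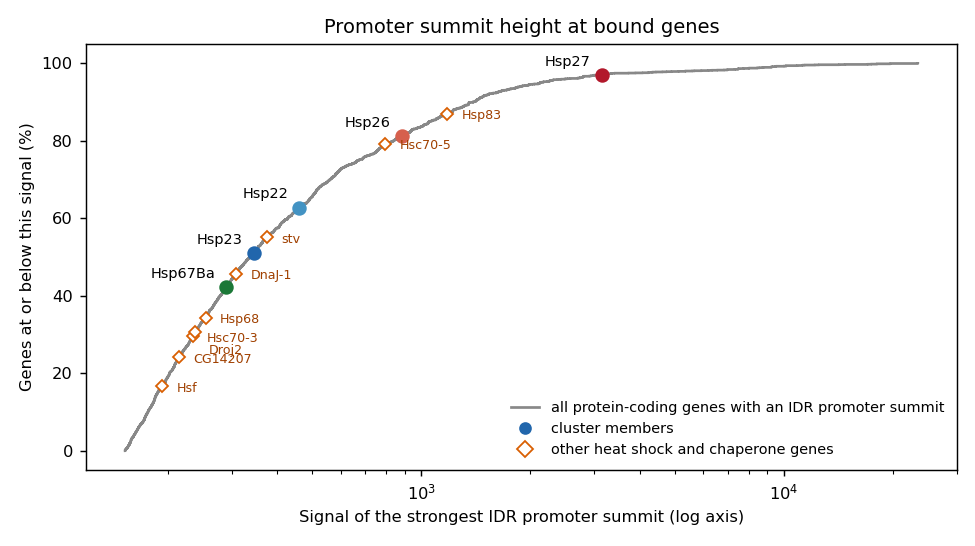
Cumulative share (%) of the 2519 bound protein-coding genes against the signal of their strongest IDR promoter summit (authors' value, log axis), with the 5 bound members as filled circles and other heat shock and chaperone genes as open diamonds. The members run from percentile 42.4 for Hsp67Ba to 97.1 for Hsp27.

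The IDR summit of each bound member lay upstream of its nearest start. The offsets were -124 bp for Hsp23, -148 for Hsp27, -272 for Hsp67Ba, -340 for Hsp26 and -430 for Hsp22. Over the 2519 bound genes the median offset was -124 bp with quartiles of -232 and 8 bp, and 55.3% were further upstream than -100 bp. Hsp67Ba, Hsp26 and Hsp22 were thus beyond the upstream quartile, and Hsp23 and Hsp27 between the quartiles. The Hsp22 summit was downstream of that gene's other start, and in replicate 2 the strongest Hsp23 summit lay 35 bp downstream.

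Heat shock element pairs were upstream of most members, and the tallest summit window held none. Matches were sought on both strands for the heat shock element pair and for GAGAG, the core bound by GAGA factor. Also sought were TATAAA, the core of the TATA box, and CACTG, as well as TATCGATA, the core bound by the promoter factor DREF, and AGGTCA, a nuclear receptor half-site. A longer element of 3 alternating units at the same spacing contains the pair by construction. Within 100 bp of the summit base, the pair was in 2 of the 8 cluster windows, those of Hsp26 and Hsp23 printed above, and in 9.69% of all IDR windows and 11.3% of windows around start sites. GAGAG was in 4 of the 8, beside 27.9% of IDR windows and 25% of start site windows. CACTG was in 1 of the 8, with 3 copies, beside 43.4% of IDR windows and 36.9% of start site windows. TATAAA was in none of the 8, beside 30.5% and 26.9%, and neither were TATCGATA (1.26% and 6.45%), AGGTCA (3.73% and 3.26%) nor the 3-unit element (0.371% and 0.291%). The Hsp27 window, printed above, held none of the motifs, nor did those of Hsp67Ba and of the outer Hsp26 summit. Within 150 bp of the summit base, the Hsp27 window held GAGAG and TATAAA. A motif not being in a window says nothing about which factor is there.

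Over the 500 bp upstream of the start sites the pair was found at most members. It was upstream of at least 1 start of 6 of the 7, all but Hsp67Ba, beside 4177 of the 13945 protein-coding genes counted the same way and 24.7% of 19253 single start sites. The pair at -119 bp from Hsp67Bc is the same as that at -113 bp from the earlier start of Hsp67Bb and at -322 bp from the start that Hsp67Bb and Hsp22 share, so these members are not independent in the count. Hsp26 had 5 pairs before its start at 9377375, a number that 0.0467% of start sites reach, and 4 before its start at 9377427, from which the summit offset was taken. Hsp23 also had 4, a number that 0.13% of start sites reach. Of the Hsp23 pairs 2 overlap, beginning at -405 and -400 bp, and together make up its 3-unit element, so they are not separate elements. Hsp22 had 2 before its shorter transcript, a number that 4.22% reach, and Hsp27 had 1, which began at -338 bp and so lay further upstream than its summit at -148 bp. The 3-unit element was upstream of Hsp23 alone among the members, beside 0.896% of genes. GAGAG was upstream of 6 members, beside 47.5% of genes, and TATAAA upstream of 6, beside 67.1%. A TATAAA began at -28 bp in Hsp22, Hsp26, Hsp27 and Hsp67Bc and at -27 bp in Hsp23, the usual place of a TATA box. CACTG was upstream of 3 members, beside 65.0% of genes, AGGTCA of Hsp22 alone, beside 13.9%, and TATCGATA of none, beside 11.3%.

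**Figure D5:**
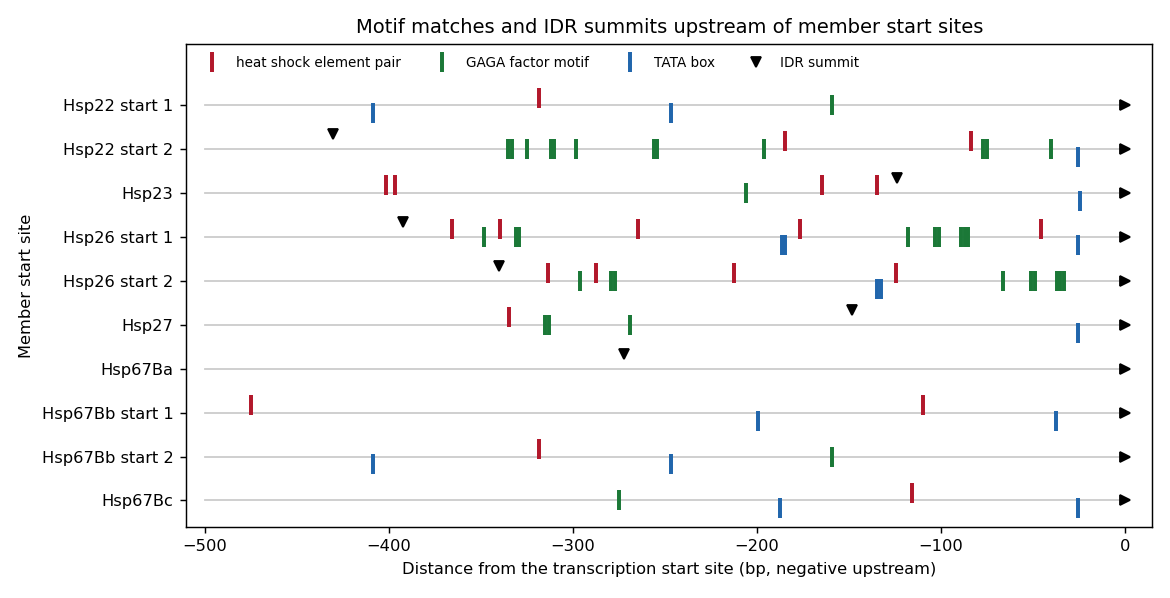
Positions of heat shock element pairs, GAGA factor motifs and TATA boxes in the 500 bp upstream of each member start site (bp, 0 at the start), with triangles for IDR summits. The Hsp27 summit at -148 bp lies between its heat shock element pair at -338 bp and its TATA box at -28 bp, and the Hsp67Ba line has a summit and no match.

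Base composition varied among the windows. The G and C content was 39.3% at Hsp27, 38.8% at Hsp26, 28.9% at Hsp22, 51.2% at Hsp23 and 40.3% at Hsp67Ba. It was 49.8% in asRNA:CR43481, 34.8% at the outer Hsp26 summit and 40.8% at CG4452, beside a median of 37.3% and quartiles of 31.8% and 43.8% over all IDR windows. The Hsp23 and asRNA:CR43481 windows were thus above the upper quartile and the Hsp22 window below the lower, and the part of base composition in the signal was not tested.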

How the data were processed

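Per the labels, chromatin of 3 biological replicates was sonicated to fragments of 200 to 800 bp and precipitated with anti-GFP. Per the file headers and names, the authors deposited, for dm6, region lists for each replicate and for the pooled replicates, both of which mix peaks with background, and an IDR list. No aligner or peak caller is named in the labels or files at hand. Per the labels a separate control experiment exists, and how it entered the signal is not stated. The authors' signal is a value per region with no stated scale, and the deposited −log10 q values reach a shared maximum. Versions of the same lists on dm3 were not used.

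Start sites came from Ensembl release 115 and sequence from RefSeq, both of genome release 6. All values were computed in Python 3.11.15 with pandas 2.3.3, numpy 2.4.6 and scipy 1.17.1. Summits were matched between lists within 100 bp, and genes were called bound within 500 bp of a start site. Orders within a list, ratios within a list and signals divided by a list's median were compared between replicates. The share of replicate 1 in the replicate sum used unscaled signals instead, and its median over the 6664 matched IDR peaks was 52.9%. The separate control experiment was not analysed here. The replicate lists shared 0 identical lines. The assignment of summits to start sites, the matching between lists and the motif search were tested on planted summits and motifs.

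The members and gene lists were chosen with earlier results of these data known. Named genes were the 7 members, every gene with a start in the region, 5 other alpha-crystallin genes, those of 19 chaperone genes with an IDR summit, and the 2 genes on either side of the strongest member in height. Alternatives changed the promoter window, flank, matching distance, list length, start site choice, motif window and replicates.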

Additional observations from a re-analysis of the deposited data

How the results depend on the processing

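The count of bound members depended on the promoter window. With 250 bp in place of 500 bp, 2 members were bound in the IDR list, beside 13.9% of genes, since the IDR summits of Hsp67Ba, Hsp26 and Hsp22 lie further from their starts, and 4 had a summit in the pooled list, beside 26.1%. With 1000 bp it was 6 in the IDR list, beside 22.0%. Leaving out each replicate in turn gave 7 to 8 summits matched in the remaining lists and a log2 ratio of Hsp27 to Hsp26 of 1.77 to 2.25. The IDR list cannot be remade without a replicate, so for the other counts an IDR peak had to be matched among the 8091 strongest regions of both remaining lists, which is also a stricter demand. This gave 4 to 5 bound members, beside 12.1% to 13.5% of genes, and 6 to 7 IDR summits in the region. With the same demand on all 3 lists it was 4 members, beside 11.4%. Matching within 50 bp left 5 of the 8 summits matched in every replicate, and within 250 bp all 8, since the Hsp23 summit of replicate 2 then counts. The share of all IDR peaks matched at these distances, or without a replicate, is not given here. Merging summits under 250 bp apart gave 7 IDR summits, the 2 at Hsp26 becoming 1. GAGAG was in 1 of the 8 windows at 50 bp on either side, beside 14.2% of IDR windows. TATAAA was in 2 at 150 bp, those of Hsp23 and Hsp27, beside 39.1%. Of 42 alternatives 38 stayed within 1.5 times of the value reported or within its spread. No paired analysis was possible because there is 1 group. No control group and no read counts limit what a low summit, such as that of Hsp67Bb and Hsp67Bc, can show.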
